A study of Mus musculus with 6 samples.

Results

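The genes described are the cysteine-rich secretory proteins (CRISPs) Crisp1, Crisp2, Crisp3 and Crisp4 and 5 relatives that carry the same CAP domain, Crispld1, Crispld2, Glipr1, Glipr2 and Pi16. They were taken by gene symbol, and all 9 were found among the 24346 genes of the table. Messenger RNA was sequenced from proximal epididymis (initial segment with caput), the stretch of duct that sperm enter on leaving the testis. The mice were wild-type and 12 weeks old, and received busulfan (3 libraries) or the solvent DMSO (3 libraries) by intraperitoneal injection. Busulfan is an alkylating drug that removes germ cells from the testis. The sources used here give neither the dose nor the interval to collection, nor how many mice made up a library. The comparison asks how the proximal epididymis differs after the drug, and an effect on the duct itself cannot be told apart from an effect through the testis. In whole tissue, fewer cells of a type and less RNA per cell cannot be told apart either.

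CAP proteins share a secreted or membrane-bound fold of the same name. CRISPs add a cysteine-rich tail with a domain that can regulate ion channels. In the mouse, CRISP1 is secreted by the epididymal epithelium and binds to sperm during their passage. CRISP4 is a second epididymal member and is known to inhibit the ion channel TRPM8. CRISP2 is made in the testis by developing sperm, and CRISP3 is best known from salivary gland and other secretory tissues.

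Crisp1 (NCBI gene 11571) and Crisp3 (NCBI gene 11572) are neighbours on the minus strand of chromosome 17, 51.5 kb apart, and the DNA before their start sites is nearly the same. The stretches are shown because in the DMSO libraries Crisp1 was the highest and Crisp3 the lowest of the 4 CRISP genes. The 250 bases before each start, from RefSeq on GRCm38.p6, are printed 5′ to 3′ with the differing bases in capitals. They lie at chr17:40319208-40319457 (Crisp1, minus strand) and chr17:40242289-40242538 (Crisp3, minus strand).
Crisp1: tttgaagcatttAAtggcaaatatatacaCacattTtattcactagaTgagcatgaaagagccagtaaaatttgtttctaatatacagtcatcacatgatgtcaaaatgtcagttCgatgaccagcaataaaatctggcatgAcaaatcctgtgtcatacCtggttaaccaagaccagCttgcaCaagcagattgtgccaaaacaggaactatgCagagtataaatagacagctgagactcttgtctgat
Crisp3: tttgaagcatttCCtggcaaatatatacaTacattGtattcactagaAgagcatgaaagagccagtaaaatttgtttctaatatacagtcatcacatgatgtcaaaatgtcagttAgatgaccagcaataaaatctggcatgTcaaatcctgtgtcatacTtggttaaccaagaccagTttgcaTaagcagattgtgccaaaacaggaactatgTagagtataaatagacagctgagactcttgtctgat
Of the 250 bases 239 are identical (95.6%), with no gap, and 11 differ. Of these, 4 lie in the last 100 bases, C161T, C179T, C185T and C215T (Crisp1 base, position from 1 at the 5′ end of the stretch, Crisp3 base). The TATA box letters (TATAAA) start at position 220 in each, 31 bases before the start site. On either strand 13.0% of 27025 promoters hold them in a window of this length. AGGAAG and CCGGAA (core letters bound by ETS factors) and AGAACA (part of an androgen receptor site) were not found in either stretch on either strand. Promoters were matched for 7 members in all, which leaves out Crispld1 and Glipr1. In them AGGAAG was present for Crisp2, Crisp4 and Pi16 (29.2% of all promoters hold it), AGAACA for Crisp4 and Pi16 (16.2%), TATAAA also for Crisp2, and CCGGAA for none (12.2%).

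Crisp4 (NCBI gene 78081) lies on chromosome 1 and has an upstream stretch unlike that of Crisp1, with 55.7% of aligned bases identical. It is shown because Crisp4 was the other abundant epididymal member (chr1:18145903-18146152, minus strand, same source, capitals for the AGAACA and AGGAAG matches, which are on the opposite strand).
Crisp4: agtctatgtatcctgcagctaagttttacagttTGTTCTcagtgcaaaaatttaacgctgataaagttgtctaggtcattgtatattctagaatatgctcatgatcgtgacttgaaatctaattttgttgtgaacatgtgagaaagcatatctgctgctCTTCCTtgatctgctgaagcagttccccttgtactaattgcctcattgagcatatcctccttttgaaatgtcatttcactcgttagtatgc

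**Figure D1:**
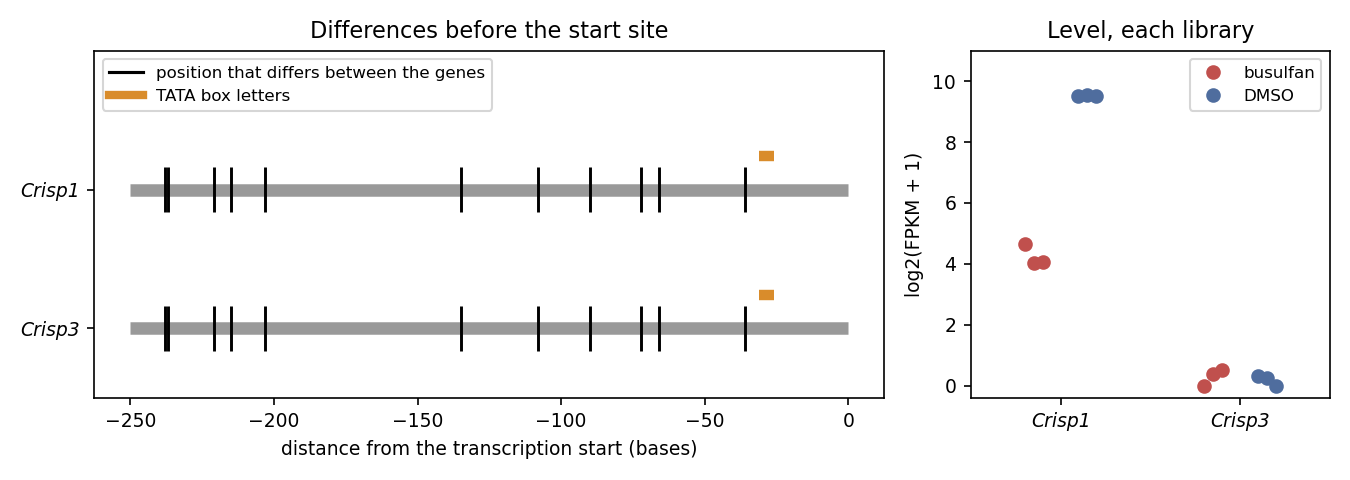
Left, positions in the 250 bases before the start site (axis: distance in bases) where Crisp1 and Crisp3 differ (black) and where the TATA box letters lie (orange). Right, log2(FPKM + 1) of both genes in each library, busulfan and DMSO; the 11 differing positions are spread over the stretch, and Crisp1 lies far above Crisp3 in every library.

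Values are normalized FPKM as the authors deposited them (fragments scaled by gene length and by depth), a unit per length in which genes can be set side by side. Over all genes they summed to 625087 to 666662 in busulfan libraries and 707219 to 732495 in DMSO libraries. Read from the spacing of the lowest values, depth was roughly 11400000 to 13200000 fragments per library, an uncertain estimate because it carries the unknown normalization. The labelled tissue was checked with 15 principal cell markers of the proximal duct, which summed to 49423 to 53488 FPKM in busulfan libraries and 81073 to 84704 FPKM in DMSO libraries. The 9 members together reached 146 to 180.1 FPKM in busulfan libraries and 981 to 998 FPKM in DMSO libraries, so each busulfan library was below each DMSO library.

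The groups were compared with limma on log2(FPKM + 1) over the 12848 genes whose mean reached 1 FPKM, 8 of the 9 members among them. The threshold was a p of 0.05 after Benjamini-Hochberg adjustment. Of these 8, 3 fell (Crisp1, Crisp4 and Pi16), 1 rose (Crispld2) and 4 did not pass. Of all tested genes 42.8% passed, 22.1% lower and 20.8% higher, so the share of members that passed, 50% of so few genes, is near the background. The groups did not overlap in 5 of the 8, against 54.6% of all tested genes. Busulfan libraries were the lower ones without overlap in 3 of the 8 (27.7% of all tested genes) and the higher ones in 2 of the 8 (26.9%). The median log2 change of the tested members was -0.11, against -0.0034 for all tested genes. When the libraries were rescaled to the same summed FPKM, the median of all genes moved to 0.14 and 74.3% of the genes past the threshold were higher, against 48.5% on the deposited scale.

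**Figure D2:**
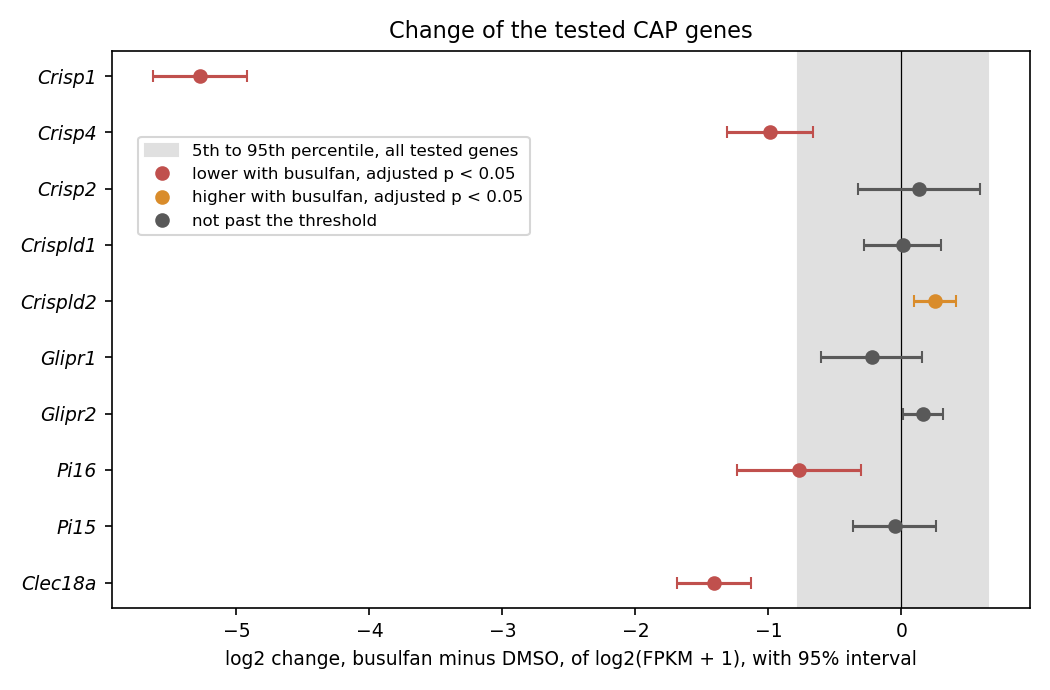
Log2 change, busulfan minus DMSO, of log2(FPKM + 1) with 95% intervals for the 8 tested members and for Pi15 and Clec18a; the grey band spans the 5th to 95th percentile of all tested genes (-0.78 to 0.65). Crisp1 at -5.27, Clec18a at -1.41 and Crisp4 at -0.99 lie outside the band, and Pi16 at -0.77 at its edge.

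Crisp1 stood at 24.4, 15.2 and 15.8 FPKM in the busulfan libraries, against 723, 748 and 738 FPKM in the DMSO libraries. The DMSO libraries differed little, and the highest busulfan library lay far below the lowest of them. Crisp1 averaged 18.5 ± 5.16 FPKM with busulfan and 736 ± 12.6 FPKM with DMSO (SD, n = 3 each), so that 2.51% of the DMSO level remained. The log2 change was -5.27 (95% interval -5.62 to -4.92; limma adjusted p = 1.1e-07), the 17th largest of 2833 falls. Among all genes of the table it held rank 4143 by mean level with busulfan and rank 140 with DMSO. Crisp1 has 8 exons and spans positions 40293758 to 40319207 of chromosome 17 (GRCm38).

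The tested genes with the nearest levels to Crisp1, by root mean square difference of log2(FPKM + 1) over the 6 libraries, were Mrpl37 (0.66), Adam28 (0.75) and Ovch2 (0.87). Mrpl37 encodes a protein of the mitochondrial ribosome and averaged 22.8 ± 0.872 FPKM with busulfan and 421 ± 17.5 FPKM with DMSO. Adam28 encodes a membrane metalloprotease and Ovch2 a serine protease-like protein. Their log2 changes were -4.15, -6.76 and -4.53, whose direction follows from choosing the genes by likeness to Crisp1 in both groups.

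Crisp4 has 9 exons between positions 18115191 and 18145902 of chromosome 1. It stood at 82.5, 113.5 and 127.6 FPKM in the busulfan libraries, against 217, 199.5 and 219 FPKM in the DMSO libraries. The groups did not overlap, and the busulfan libraries were more spread than the DMSO libraries. Crisp4 averaged 108 ± 23.0 FPKM with busulfan and 212 ± 10.9 FPKM with DMSO (SD, n = 3 each), 50.9% of the DMSO level. Its log2 change of -0.99 (95% interval -1.31 to -0.67; limma adjusted p = 0.000803) was larger in size than that of all but 4.87% of tested genes. Among the genes nearest to Crisp4 in level were Nans (root mean square difference 0.20), which encodes a sialic acid synthase, and Fkbp1a (0.21), which encodes an immunophilin. Their log2 changes, -0.93 and -0.82, likewise follow from the choice.

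The balance between both epididymal CRISPs differed between the groups by more than the spread of the libraries. The log2 ratio of Crisp4 to Crisp1 was taken with 1 FPKM added to each. It averaged 2.49 ± 0.67 in busulfan libraries and -1.79 ± 0.09 in DMSO libraries, a difference of 4.28. An exact two-sided permutation test gave p = 0.1, the smallest that 3 libraries against 3 allow. In plain FPKM, Crisp4 exceeded Crisp1 by 3.38, 7.47 and 8.07 times in the busulfan libraries. Crisp1 exceeded Crisp4 by 3.32, 3.75 and 3.37 times in the DMSO libraries. Crisp4 was the higher of the pair in every busulfan library and Crisp1 in every DMSO library. The busulfan library with the lowest Crisp4 value, replicate 1, also had the highest Crisp1 value.

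The 4 CRISP genes summed to 108, 130.5 and 146 FPKM in the busulfan libraries and to 941, 949 and 959 FPKM in the DMSO libraries. The mean sum with busulfan was 13.5% of that with DMSO. Crisp1 made up 15.1 ± 6.61% of the sum with busulfan and 77.5 ± 1.13% with DMSO. Crisp4 made up 83.7 ± 6.13% with busulfan and 22.3 ± 1.13% with DMSO (SD, n = 3 each).

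**Figure D3:**
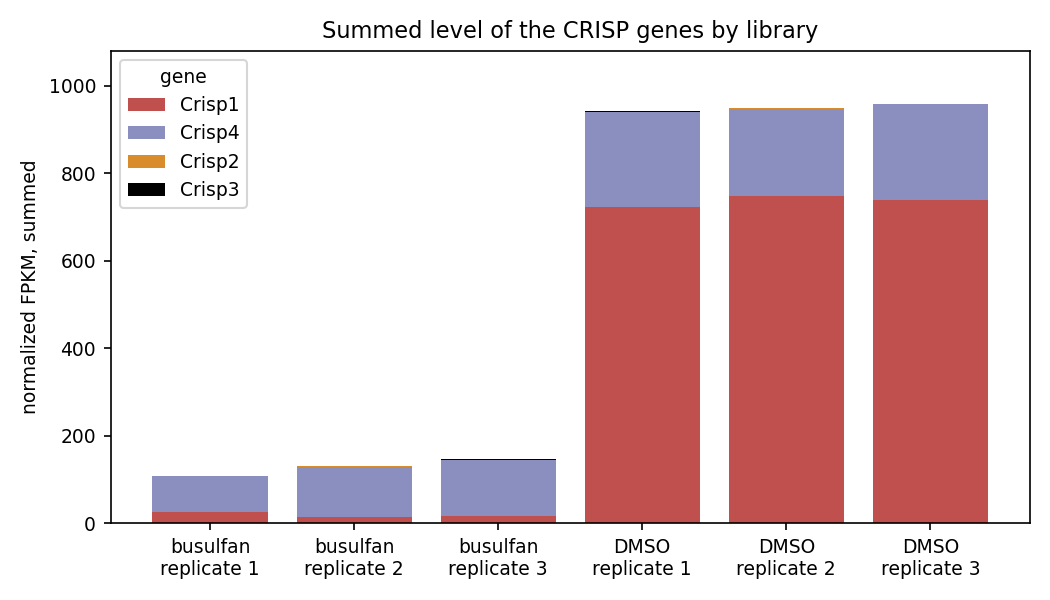
Normalized FPKM of Crisp1, Crisp4, Crisp2 and Crisp3 stacked for each of the 3 busulfan and 3 DMSO libraries. The busulfan bars reach 108 to 146 FPKM and are mostly Crisp4, and the DMSO bars reach 941 to 959 FPKM and are mostly Crisp1.

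Genes linked to the epithelial cell types and to the control of principal cells moved in the same libraries, and their part in the falls of Crisp1 and Crisp4 was not tested. Of the 15 principal cell markers 10 fell and 5 rose (22.1% and 20.8% of all tested genes), and the median log2 change was -0.92. Of 6 tested clear cell markers 3 rose and 2 fell, and the 7 listed summed to 165 to 179 FPKM in busulfan libraries and 133 to 139 FPKM in DMSO libraries. The clear cell factor gene Foxi1 averaged 65.9 ± 2.36 FPKM with busulfan and 33.0 ± 3.59 FPKM with DMSO. Atp6v0d2, a clear cell marker that fell, averaged 33.4 ± 0.861 FPKM with busulfan and 51.3 ± 0.921 FPKM with DMSO. Of 5 basal cell markers 2 rose and 3 fell, and their sum was 159 to 167 FPKM in busulfan libraries and 162 to 172 FPKM in DMSO libraries. The 6 ETS factor and ERK feedback genes of the initial segment all fell, and their median was -2.73. Their summed level was 20.0 to 24.3 FPKM in busulfan libraries and 292 to 349.6 FPKM in DMSO libraries. Of these Etv4 had values of 0.0372, 0.17 and 0.234 FPKM with busulfan and 38.6, 44.3 and 44.2 FPKM with DMSO. Etv4 thus reached the filter only through its DMSO libraries. Etv5, another ETS factor, averaged 5.23 ± 0.84 FPKM with busulfan and 190.5 ± 16.7 FPKM with DMSO. Dusp6, a phosphatase that acts on ERK, averaged 3.90 ± 0.315 FPKM with busulfan and 60.9 ± 11.8 FPKM with DMSO. Of 8 tested genes of androgen receptor action, Crisp1 among them, 3 rose and 4 fell, with a median of -0.05. In that list Srd5a1, which encodes a testosterone-reducing enzyme, averaged 4.09 ± 0.624 FPKM with busulfan and 12.2 ± 0.855 FPKM with DMSO. Lcn5, a lipocalin gene, averaged 10790 ± 2768 FPKM with busulfan and 5500.4 ± 1597 FPKM with DMSO.

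Other epididymal genes whose products bind or coat sperm moved in both directions, with 9 of 19 tested lower, 7 higher and 3 in neither count. Among all tested genes 22.1% were lower and 20.8% higher. The median of the 19 was -0.20 on the log2 scale. The 3 largest changes were falls, those of Rnase10, which also stands among the principal cell markers (15.5 ± 6.31 FPKM with busulfan, 3377 ± 374 FPKM with DMSO), Ly6g5b (38.5 ± 3.23 FPKM with busulfan, 2239 ± 115 FPKM with DMSO) and Cst11 (389.9 ± 27.1 FPKM with busulfan, 7727 ± 492 FPKM with DMSO). Of 9 genes for channels and sperm proteins on which CRISPs are reported to act, 2 reached the level needed for testing (Map3k11 and Catsper2) and neither passed.

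Crisp3 was near the floor in both groups. Crisp3 was listed at 0, 0.306 and 0.421 FPKM in the busulfan libraries and at 0.259, 0.18 and 0 FPKM in the DMSO libraries. It was not tested. These values correspond to roughly 0 to 7 fragments per library, too few to judge whether the groups differed. In the DMSO libraries with a Crisp3 value above 0, Crisp1 was 2793 and 4161 times higher than Crisp3. The coding sequences of the pair are 89.5% identical over 711 aligned bases. The longest run shared by their transcripts is 70 bases, and 33 of 1367 stretches of 50 bases in Crisp1 (2.41%) also occur in Crisp3. Fragments from such stretches could therefore have been assigned to either gene. Crisp1 had roughly 12586 to 13975 fragments per DMSO library, against 0 to 5 for Crisp3. The values of Crisp3, and the ratios taken to them, are thus uncertain. Crisp2 shares no stretch of 50 bases with Crisp1, nor does Crisp4.

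Crisp2 (NCBI gene 22024), the member made by developing sperm in the testis, spans positions 40764020 to 40807003 of chromosome 17. It stood at 0.753, 1.49 and 2.03 FPKM with busulfan and at 0.968, 1.18 and 1.34 FPKM with DMSO. The DMSO libraries lay within the range of the busulfan libraries. Its log2 change was 0.13 (95% interval -0.32 to 0.59; limma adjusted p = 0.623), an interval that leaves room for a change of either sign. In the same libraries 4 of 7 tested sperm and spermatid transcripts fell (22.1% of all tested genes did), and the other 3 did not pass. Their median log2 change was -2.23. The filter was on the mean of all 6 libraries, so transcripts low with busulfan could pass it through the DMSO libraries alone. This applied to Tnp1 and tilts the count and the median towards falls. The summed level of the 12 listed was 11.2 to 25.9 FPKM in busulfan libraries and 43.9 to 63.9 FPKM in DMSO libraries. Tnp1, which packs spermatid DNA, was at 0, 0.324 and 0.371 FPKM with busulfan and at 6.84, 6.02 and 4.74 FPKM with DMSO. The protamine gene Prm1 was at 0, 1.10 and 2.1 FPKM with busulfan and at 13.5, 10.7 and 7.87 FPKM with DMSO.

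**Figure D4:**
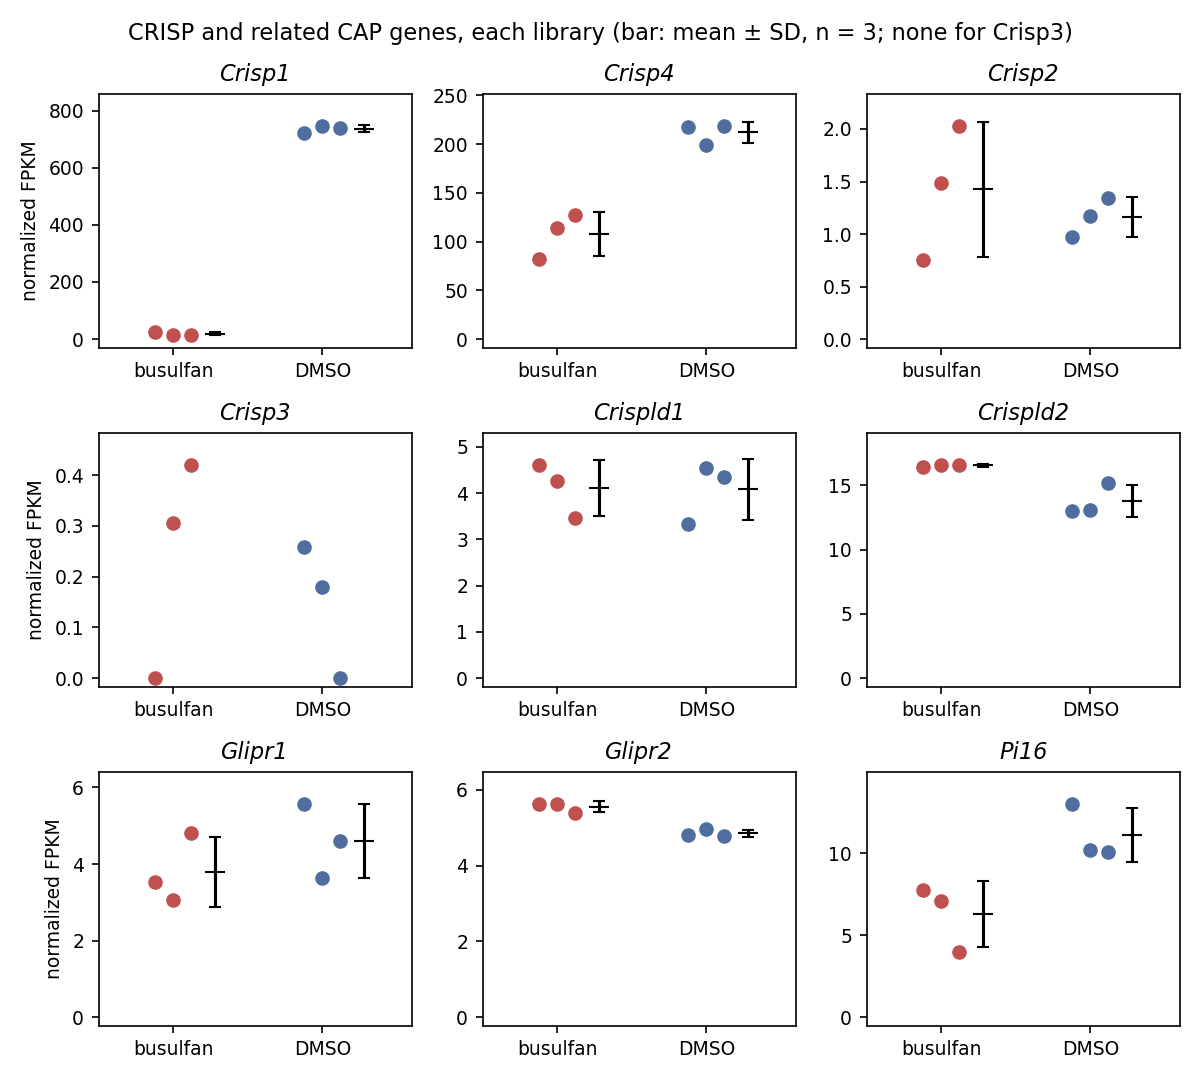
Normalized FPKM of the 9 members in each library, busulfan and DMSO, with the mean ± SD (n = 3) beside the points except for Crisp3, which is listed at 0 in 1 library of each group. The groups are apart for Crisp1, Crisp4, Pi16, Crispld2 and Glipr2 and overlap for the other 4, and the scale differs from panel to panel.

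Pi16 (NCBI gene 74116) encodes a membrane-anchored CAP protein known as a marker of fibroblasts around vessels, and lies at positions 29317680 to 29330593 of chromosome 17. It stood at 7.74, 7.07 and 3.99 FPKM in the busulfan libraries and at 13.0, 10.2 and 10.1 FPKM in the DMSO libraries. The groups did not overlap, and busulfan replicate 3 was the lowest. Pi16 fell to 6.27 ± 2.0 FPKM with busulfan, against 11.1 ± 1.66 FPKM with DMSO (SD, n = 3 each; log2 change -0.77, 95% interval -1.23 to -0.30, limma adjusted p = 0.0159). Without DMSO replicate 1 it no longer passed (adjusted p = 0.0581).

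Several fibroblast markers were lower in the same libraries, and their part in the fall of Pi16 was not tested. Of 10 fibroblast and matrix markers 6 fell (22.1% of all tested genes did), the other 4 did not pass, and the median was -0.64 on the log2 scale. Their summed level was 324, 296 and 221 FPKM in the busulfan libraries and 409.7, 382 and 477 FPKM in the DMSO libraries. The busulfan mean was 66.3% of the DMSO mean for that sum and 56.4% for Pi16. Replicate 3 was the lowest busulfan library for both. Among the DMSO libraries, replicate 3 was the lowest for Pi16 (10.1 FPKM) and the highest for that sum (477 FPKM). Pdgfra, a growth factor receptor gene of fibroblasts, averaged 16.5 ± 1.59 FPKM with busulfan and 61.2 ± 5.79 FPKM with DMSO, and the collagen gene Col1a1 20.4 ± 6.15 FPKM with busulfan and 38.9 ± 4.31 FPKM with DMSO. Of 9 other markers of the Pi16-positive fibroblast type 5 fell and 3 rose (22.1% and 20.8% of all tested genes), with a median of -0.39. Cd34 was at 20.1 ± 3.72 FPKM with busulfan and 77.2 ± 6.88 FPKM with DMSO, whereas Dpp4, a peptidase gene, was at 36.8 ± 1.08 FPKM with busulfan and 17.2 ± 1.03 FPKM with DMSO. Of 10 endothelial markers 8 fell (22.1% of all tested genes did). Their summed level was 75.4 to 83.8 FPKM in busulfan libraries and 109 to 117 FPKM in DMSO libraries. Of 6 smooth muscle markers 1 fell, Actg2, an actin gene (46.8 ± 6.0 FPKM with busulfan, 1443 ± 110 FPKM with DMSO).

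Crispld2 (NCBI gene 78892) encodes a secreted protein with a CAP domain and LCCL domains and is known from mesenchyme of the developing lung. The gene spans positions 119992438 to 120052793 of chromosome 8, and Crispld1 spans positions 17727045 to 17766344 of chromosome 1. Its levels were 16.4, 16.6 and 16.6 FPKM in the busulfan libraries and 13.0, 13.1 and 15.2 FPKM in the DMSO libraries. The groups did not overlap, and DMSO replicate 3 lay nearest to the busulfan libraries. It rose 1.20-fold (log2 change 0.25, 95% interval 0.09 to 0.41, limma adjusted p = 0.0187). The call was lost without busulfan replicate 2 (adjusted p = 0.0579), DMSO replicate 1 (0.0601) or DMSO replicate 2 (0.0667). Its sister gene Crispld1 was at 4.11 ± 0.597 FPKM with busulfan and 4.08 ± 0.66 FPKM with DMSO (log2 change 0.01, 95% interval -0.28 to 0.30, limma adjusted p = 0.957). The gene models of Crispld1, Crispld2 and Pi16 overlap antisense genes, and that of Glipr1 a coding gene on the other strand. With the strand setting of the counting unknown, fragments of these overlaps cannot be told apart. The model of Crispld2 also overlaps a coding gene on its own strand over 60356 bases, which a strand setting would not separate.

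The GLIPR genes encode small CAP proteins, Glipr1 a membrane-linked one first described in glioma and Glipr2 one on the outer face of Golgi membranes. Glipr1 spans positions 111985448 to 112002631 of chromosome 10 and Glipr2 positions 43957401 to 43979118 of chromosome 4. Glipr2 stood at 5.64, 5.63 and 5.40 FPKM in the busulfan libraries and at 4.81, 4.96 and 4.80 FPKM in the DMSO libraries. Although the groups did not overlap, it did not pass (log2 change 0.16, 95% interval 0.01 to 0.31, limma adjusted p = 0.0777). It did pass after rescaling the libraries to the same summed FPKM (log2 change 0.30, adjusted p = 0.0138), against a shift of all genes of 0.14. Glipr1 had values of 3.53, 3.06 and 4.82 FPKM in the busulfan libraries and 5.58, 3.63 and 4.59 FPKM in the DMSO libraries. The groups overlapped (log2 change -0.22, 95% interval -0.60 to 0.15, limma adjusted p = 0.305). Without 1 library the log2 change lay between -0.37 (without busulfan replicate 3) and -0.10 (without DMSO replicate 1), at -0.35 without DMSO replicate 2 and -0.11 without busulfan replicate 2, and it did not pass in any of these. Glipr1 is also known from myeloid cells. Of 12 macrophage and dendritic cell markers 1 rose (Cd68), 2 fell (Itgam and Csf1r) and 9 did not pass, against 20.8% higher and 22.1% lower among all tested genes. Their summed level was 202 to 275 FPKM with busulfan and 229 to 253 FPKM with DMSO.

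The order of the 9 levels also differed between the groups. With busulfan it ran Crisp4, Crisp1, Crispld2, Pi16, Glipr2, Crispld1, Glipr1, Crisp2 and Crisp3, and the libraries of Crisp1 and Crispld2, of Pi16 and Glipr2, and of Crispld1 and Glipr1 overlapped. With DMSO it ran Crisp1, Crisp4, Crispld2, Pi16, Glipr2, Glipr1, Crispld1, Crisp2 and Crisp3, and the libraries of Glipr2 and Glipr1 and of Glipr1 and Crispld1 overlapped. The other neighbours in each order were apart in all libraries of the group. Crisp1, first by a wide margin with DMSO, was thus not separated from Crispld2 with busulfan.

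Of the 6 other CAP genes of the mouse considered, 5 were among the deposited genes, and Glipr1l3 was not found there by symbol. Glipr1l1, Glipr1l2 and R3hdml were listed at 0 in every library. Clec18a, which joins a CAP domain to a C-type lectin domain, stood at 0.442, 0.718 and 0.822 FPKM in the busulfan libraries and at 3.18, 3.38 and 3.64 FPKM in the DMSO libraries. The groups were wide apart, with 19.5% of the DMSO level remaining (log2 change -1.41, 95% interval -1.69 to -1.13, limma adjusted p = 5.19e-05). Every busulfan value was below 1 FPKM, so Clec18a reached the filter only through its DMSO libraries. The size of its fall is therefore uncertain. Pi15 was at 2.62 ± 0.515 FPKM with busulfan and 2.74 ± 0.467 FPKM with DMSO (SD, n = 3 each; log2 change -0.05, 95% interval -0.36 to 0.26, limma adjusted p = 0.790).

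Neither coding gene next to Crisp1 could be tested, and neither of the 2 next to Crisp4 passed as lower. On chromosome 17 the coding genes next to Crisp1 were Crisp3 and the pheromone gene Esp8, which was listed at 0 in every library. Pgk2, on the other side of Crisp3, was at 0.286, 0.627 and 0.478 FPKM with busulfan and at 0.772, 0.46 and 0.561 FPKM with DMSO. On chromosome 1 Crisp4 lies 348.8 kb from Crispld1 and 90.6 kb from the β-defensin gene Defb18. Defb18 rose to 10245 ± 145 FPKM with busulfan, against 7282 ± 750.1 FPKM with DMSO (log2 change 0.50, limma adjusted p = 0.00327), a call lost when no filter on low genes was used (adjusted p = 0.0627). Pi15 lies beyond Crispld1 in the same region.

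**Figure D5:**
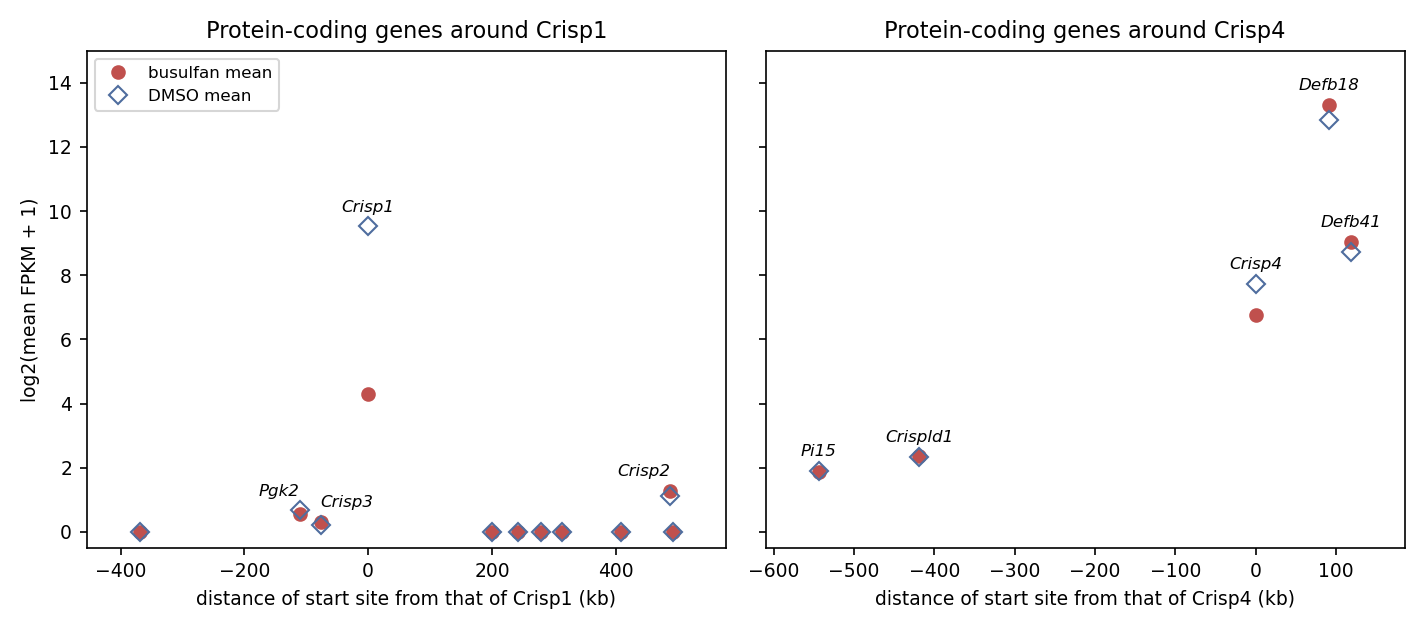
Mean level, as log2(mean FPKM + 1), of protein-coding genes around Crisp1 (left) and Crisp4 (right) against the distance of their start sites in kb, busulfan and DMSO. Crisp1 and Crisp4 are lower with busulfan, Defb18 and Defb41 (the second named after its values were seen) are higher, and unlabelled points are genes listed at 0.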

How the data were processed

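The data of 6 libraries came as 1 table of normalized FPKM that the authors deposited, a unit named per the file headers. The submitters' processing notes list TopHat2 2.1.1, Cufflinks 2.2.1 and mm10, without role or order. The extract protocol in the labels names a stranded mRNA kit. The normalization, annotation and strand setting were not given in the sources used here. No pair of libraries was identical, and nothing says that they came from separate mice, so p-values measure the spread between these libraries, which may be technical.

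The test was limma 3.58.1 (R 4.3.3, mean-variance trend, all 6 libraries) on log2(FPKM + 1) of the 12848 genes whose mean reached 1 FPKM, with Benjamini-Hochberg adjustment over all of them. Log2 changes are busulfan minus DMSO on that scale, which understates changes of low genes. Folds and percentages are ratios of mean FPKM. The procedure was tested on simulated data. The values are not counts, so no count test was run. Coordinates, exons and transcripts came from GENCODE M21 (GRCm38, also called mm10) by symbol, and promoters from RefSeq. Transcripts were aligned with Biopython 1.88, and figures drawn with matplotlib 3.10.9 (Python 3.11.15).

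The members and gene lists were chosen with earlier results of these data known. Named were all members, the 6 other CAP genes, the 3 genes nearest in level to Crisp1 and to Crisp4, coding neighbours, and at most 3 genes of a list, by size of change among those that passed (by level where none did). Some genes that this rule takes were left unnamed, and 1 of those nearest to Crisp4 is not reported here. Alternatives were another pseudocount (0.1), filters (a mean of 5 FPKM, none), 2 scalings, limma without a trend, a replicate block, and each library left out.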

Additional observations from a re-analysis of the deposited data

How the results depend on the processing

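Crisp1, Crisp4 and Clec18a kept their direction and stayed past the threshold under every alternative in which they were tested. Clec18a reached the main filter only through its DMSO libraries. It was not tested with a mean of 5 FPKM required, which left 0 of the other CAP genes called, and 0 of them lower. The difference in the Crisp4 to Crisp1 log2 ratio lay between 4.06 and 4.67 without 1 library. The summed CRISP level, as log2 of the ratio of means, was -2.89 and lay between -3.0 and -2.78 without 1 library. Leaving out 1 library gave 2 to 4 members called in all (2 without DMSO replicate 1) and 0 to 1 higher. There were 2 members higher after rescaling to the same summed FPKM or with limma without a trend, because Glipr2 then passed (adjusted p = 0.0138 and 0.0432). The rescaling also gave 4584 genes higher and 1588 lower, against 2668 and 2833. Quantile normalization moved the median of all genes to 0.04. Signs turned for 3 genes, none of which passed in any setting. Without 1 library the log2 change lay between -0.10 and 0.11 for Crispld1, -0.046 and 0.35 for Crisp2, and -0.15 and 0.052 for Pi15. Crispld1 was at -0.0040 after quantile normalization, and Pi15 at 0.065 after rescaling. Defb18 no longer passed without a filter (adjusted p = 0.0627). The causes of these changes were not tested.

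The labels do not say whether replicate numbers pair the libraries. Same-numbered libraries had correlations of their deviations of -0.18, -0.03 and -0.18, and 0 of 6 libraries correlated best with its own number. With 3 libraries per group these correlations cannot exclude a pairing. With a replicate block 4627 genes were called, against 5501, and the 4 members called were as before. Crisp2, Crisp3 and Glipr1 rest on the fewest fragments, roughly 81 or fewer per library.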
